A study of Mus musculus with 12 samples.

Results

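The genes described here encode the enzymes that feed carbon into the mitochondrial tricarboxylic acid (TCA) cycle, turn the cycle, and break down the branched-chain amino acids leucine, isoleucine and valine. They were taken by gene symbol from a list of 37 genes. The rule itself used no measured value, but the list was drawn up with earlier results of these data known. Of these, 35 had a probe that could be assigned to them alone, comprising 5 of 5 pyruvate dehydrogenase genes, 14 of 15 TCA cycle genes and 16 of 17 branched-chain genes, among 19013 gene symbols on the array. The list's *Got1* was not matched to a probe, and the probe of *Mut* (now named Mmut) had the same values on every array as a probe of *Cenpq* and was left unassigned. The 35 genes were read by 40 features, a feature being a probe or a set of probes with identical values, and each gene is given by its brightest feature unless stated otherwise.

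The study asked how gene expression changes when CELF splicing activity is repressed in heart muscle. CELF proteins control alternative splicing, and MHC-CELFΔ mice carry a transgene for a nuclear dominant negative CELF protein driven by the α-myosin heavy chain promoter, which is active in postnatal heart muscle cells. Whole hearts were taken from female FVB/N mice at 3 weeks of age, 1 heart per array. The arrays held 3 mice of MHC-CELFΔ-574 ("mild" line, lower transgene expression), 3 mice of MHC-CELFΔ-10 ("severe" line, higher transgene expression), and 3 wild type littermates of each line, used jointly as 6 wild type hearts. Both lines were kept as hemizygotes, and each is a single transgenic line, so that an effect of the insertion site and an effect of the dominant negative protein cannot be told apart within a line.

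The postnatal heart draws most of its ATP from oxidation in mitochondria. Pyruvate enters through the pyruvate dehydrogenase complex as acetyl-CoA, which citrate synthase joins to oxaloacetate to start the TCA cycle. Pyruvate dehydrogenase, 2-oxoglutarate dehydrogenase and the branched-chain ketoacid dehydrogenase are built on the same plan, with a decarboxylase, a lipoylated acyltransferase core and a shared dihydrolipoamide dehydrogenase. The first and the last are switched off by dedicated kinases and on by dedicated phosphatases. Branched-chain amino acids are first transaminated, then oxidized by the branched-chain complex, and the separate leucine, valine and isoleucine routes end in acetyl-CoA, acetoacetate or, through propionyl-CoA, succinyl-CoA.

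Each array gave 1 intensity per probe, and these were corrected for background, quantile normalized and put on a log2 scale, so that a difference of 1 is a 2-fold change in signal. The median raw intensity was 116 to 119 on the severe line arrays and 103 to 112 on the other 9. Heart muscle markers were bright on all arrays, with the atrial peptide gene *Nppa*, the myosin light chain gene *Myl2* and the myosin heavy chain gene *Myh6* above at least 99.8% of features. The mean of the 8 measured heart muscle markers lay 0.19 to 0.26 below the wild type mean on the mild arrays and 0.12 to 0.20 below it on the severe arrays, against -0.14 to 0.11 on single wild type arrays. This was carried by *Ryr2* and *Pln*, the calcium release channel and phospholamban, which passed the test in both lines. Against each line's own littermates a dimmer *Ryr2* feature did not pass, at 0.01 (adjusted p = 0.987) in mild and -0.26 (adjusted p = 0.224) in severe hearts. The mean of 8 fibroblast markers was 0.06 to 0.27 above the wild type mean on the mild arrays and 0.18 to 0.22 above it on the severe arrays, against -0.06 to 0.06 on wild type arrays, and 1 of the 8 (*Col1a1*) passed the test, in severe hearts. The mean of 6 skeletal muscle markers was 0.31 to 0.39 above the wild type mean on the mild arrays and 0.17 to 0.21 above it on the severe arrays, against -0.06 to 0.04 on wild type arrays. Of these, *Acta1*, the skeletal actin that heart muscle also makes, rose by 1.42 and 1.18 on the log2 scale and *Pvalb*, the calcium buffer parvalbumin, by 0.65 in mild hearts, while the fast myosin genes *Myh1* and *Myh4* lay above no more than 11.6% and 32.2% of features and did not pass. The mean of 5 smooth muscle markers was 0.18 to 0.31 above the wild type mean on the severe arrays, against -0.12 to 0.15 on wild type arrays and -0.13 to -0.06 on mild arrays. The smooth muscle actin *Acta2* rose by 0.61 in severe hearts and fell by 0.56 in mild hearts, and *Tagln*, transgelin, rose by 0.70 in severe hearts, while *Myh11*, *Cnn1* and *Mylk* did not pass. No gene of the endothelium, macrophage, red blood cell, adipose and liver marker lists passed in either line. The brown fat gene *Ucp1* read 7.37 on mild replicate 1 and 7.37 and 7.91 on a pair of wild type arrays (severe line's litters, replicates 1 and 2), against 5.79 to 6.45 on the other 9 arrays. The part of these shifts in the results below was not tested. In whole-heart RNA, fewer cells of a type and less RNA per cell cannot be told apart.

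In both MHC-CELFΔ lines the enzymes of these pathways were shifted towards lower signal, by amounts well under 2-fold. Of the 35 genes, 8 passed the test in mild hearts (22.9%, against 3.55% of all features and 6.91% of features above the median level) and all 8 were lower (1.93% of all features and 3.72% of the bright ones were called lower). In the severe line, 16 genes passed (45.7%, against 3.3% of all features and 6.4% of those above the median level), again all lower (background 1.56% and 3.03%). The test was limma's moderated test, with p-values adjusted by the Benjamini-Hochberg method over all 30854 features and a call at an adjusted p under 0.05. Counting direction alone, 30 of the 35 genes lay below the wild type mean in each line, against 50% of all features and 49.8% of bright ones in mild hearts and 50.2% and 51.8% in severe hearts. Since 33 of the 35 genes lie above the median level, the shares of bright features are the nearer background. They are not matched to the level of these genes, several of which lie far above the median (*Cs* at percentile 99, *Dlst* at 98.7). The 2 lines were compared with the same 6 wild type hearts, so their counts are not independent of each other. Under the study's own rule, a fold change of at least 2 with an adjusted p under 0.05 or an unadjusted p under 0.001, none of the 35 genes was selected in either line, against 0.269% and 0.136% of all features.

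**Figure D1:**
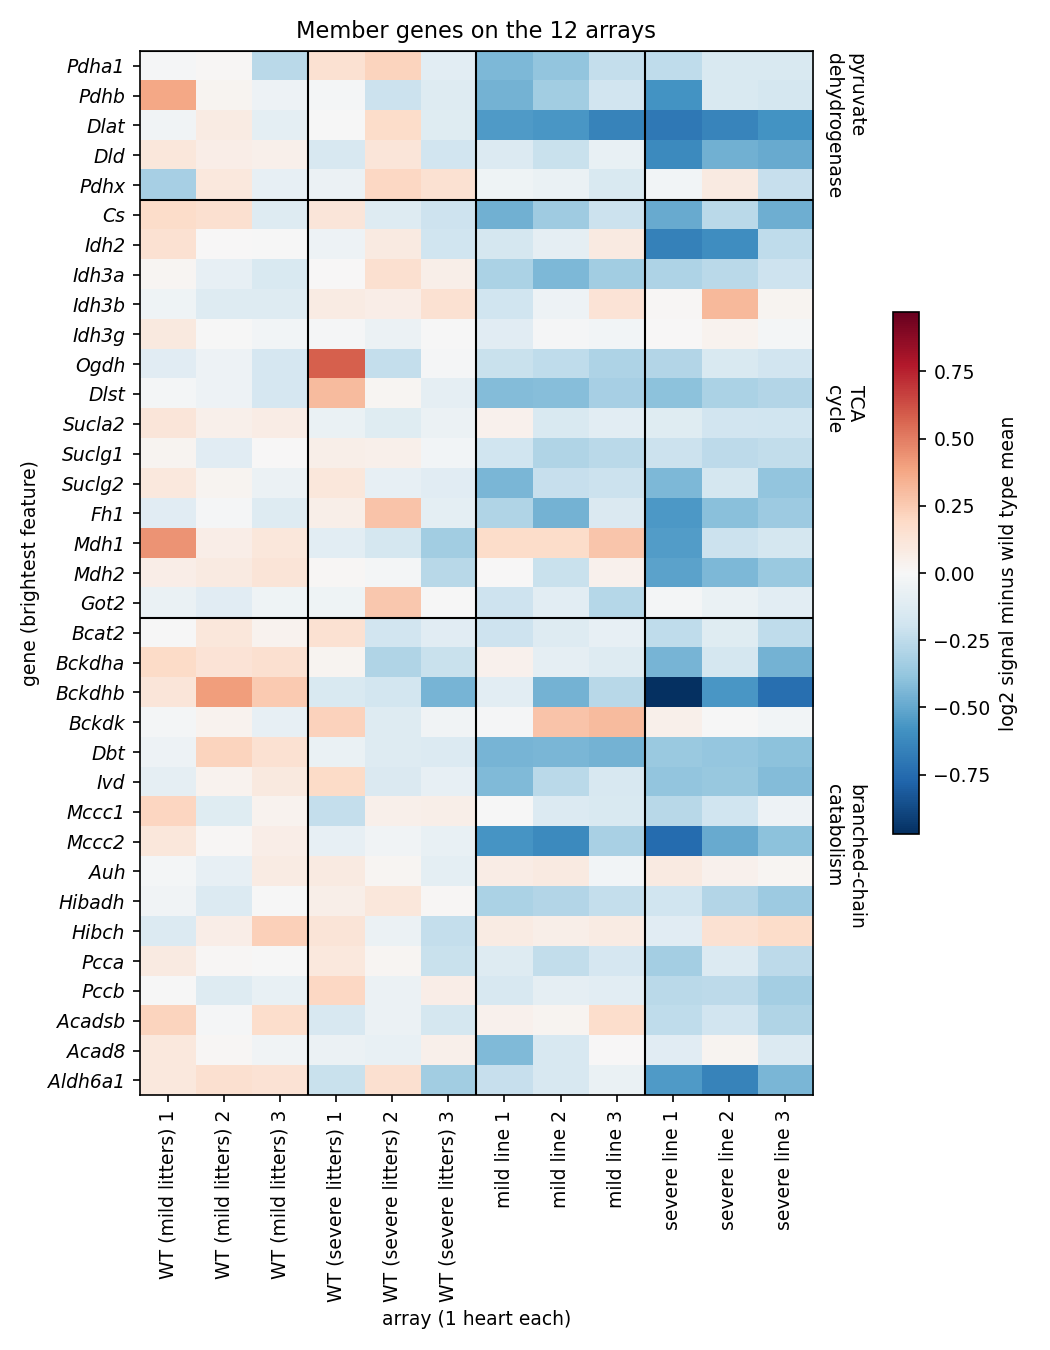
Each row is 1 of the 35 genes and each column 1 of the 12 arrays, and the color gives the log2 signal minus the mean of the 6 wild type arrays. Of the 35 genes, 27 to 30 lie below the wild type mean on the mild arrays and 29 to 32 on the severe arrays, against 13 to 28 on single wild type arrays.

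Each of the 3 groups of enzymes lay on the low side in both lines. The median log2 fold change of the 5 pyruvate dehydrogenase genes was -0.33 in mild hearts and -0.30 in severe hearts, that of the 14 TCA cycle genes -0.22 and -0.28, and that of the 16 branched-chain genes -0.14 and -0.26, while the median of all features was 0.00 in both comparisons. On single arrays, the median difference of the TCA cycle genes from the wild type mean was -0.22 to -0.17 in mild hearts and -0.35 to -0.22 in severe hearts, which did not overlap with -0.07 to 0.05 in wild type. The branched-chain medians were -0.15 to -0.11 in mild hearts and -0.31 to -0.19 in severe hearts, against -0.10 to 0.07 in wild type. The pyruvate dehydrogenase medians, over 5 genes, were -0.44 to -0.19 and -0.58 to -0.15, against -0.12 to 0.18. All 3 mild arrays lay below all 6 wild type arrays for 11 genes (3.92% of all features and 6.37% of bright features did so), and all 3 severe arrays did for 19 genes (3.63% and 5.58%). No gene lay above all wild type arrays in all 3 hearts of either line.

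**Figure D2:**
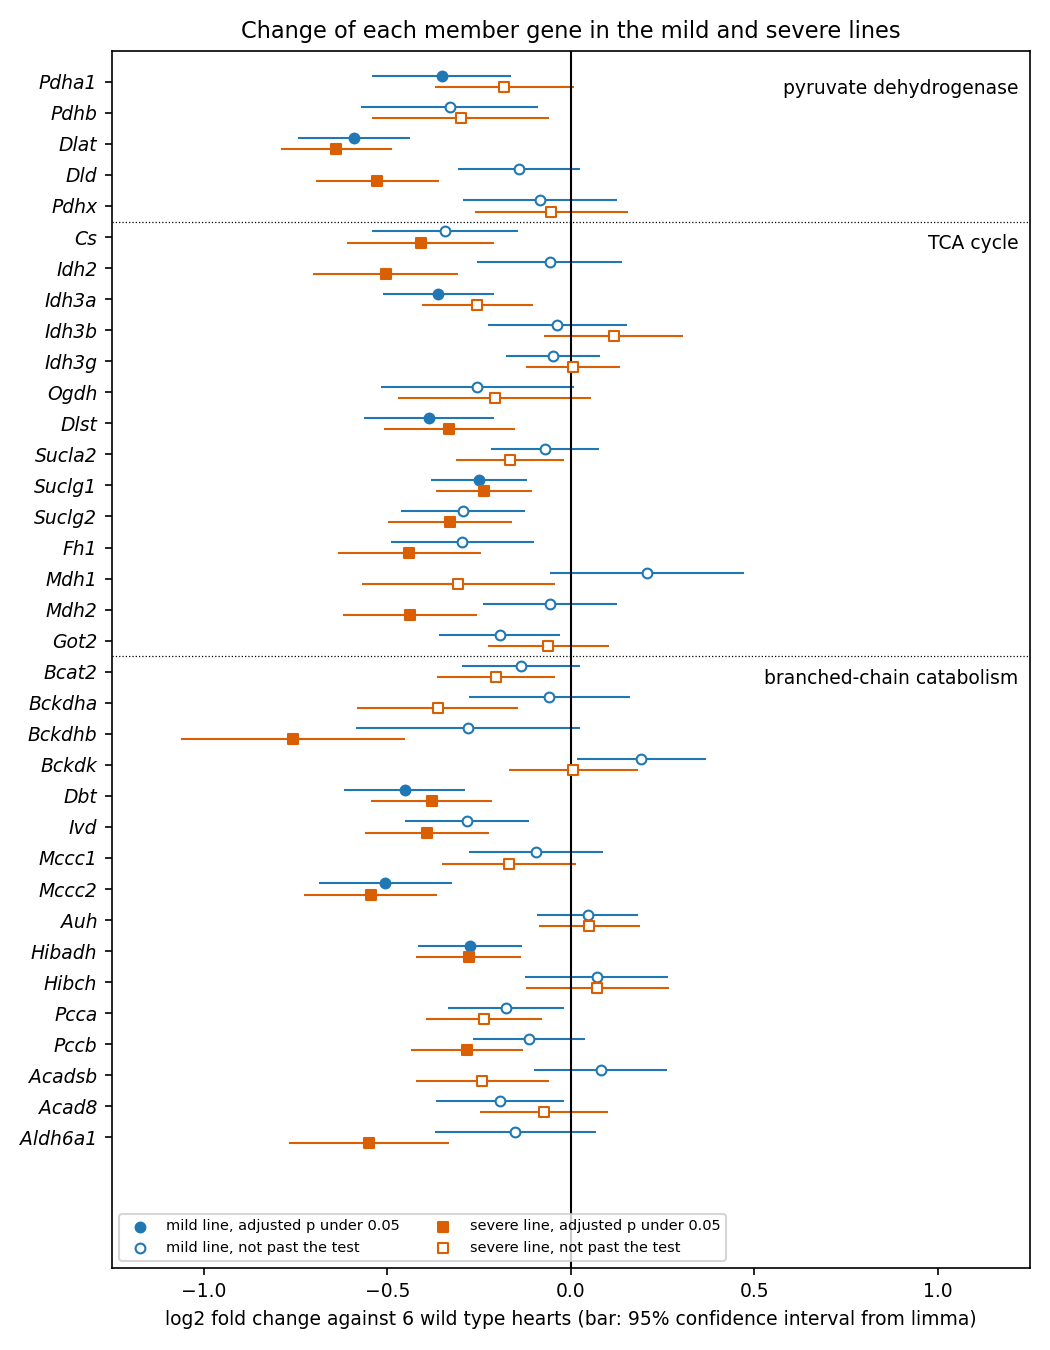
The log2 fold change of each gene against the 6 wild type hearts is shown with its 95% confidence interval from limma for the mild line (circles) and the severe line (squares), with filled symbols for genes past the test. Every filled symbol lies to the left of 0, 8 in mild hearts and 16 in severe hearts.

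Within the pyruvate dehydrogenase complex, *Dlat*, which encodes the lipoylated acetyltransferase core, fell in both lines and by the most of the 5 genes. Wild type *Dlat* signal lay between 10.38 and 10.67 (median 10.48), while the mild hearts read 9.94, 9.93 and 9.84 and the severe hearts 9.80, 9.86 and 9.92. The 6 transgenic hearts were all below the lowest wild type heart by a wide gap, and the 2 lines overlapped with each other. *Dlat* fell by 0.59 on the log2 scale (adjusted p = 3.84e-05, SE 0.07) in mild hearts, 1.51-fold lower than wild type, and by 0.64 on the log2 scale (adjusted p = 3.01e-05, SE 0.07) in severe hearts, 1.56-fold lower than wild type.

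The stretch of 250 bases before the *Dlat* start site is shown because *Dlat* is the member with the smallest adjusted p in both lines. Beside it is that of *Mccc2*, a leucine enzyme whose call likewise held in both lines under every alternative setting. The third is that of *Hibadh*, a valine enzyme that also fell in both lines and whose stretch holds a match to a motif searched below. The stretches of *Dlst* and *Suclg1*, also called in both lines, hold no match and are not shown. The printed stretches are RefSeq sequences on GRCm38.p6, written 5′ to 3′ on the strand of the gene. Capitals mark a match to the letters of the NRF1 motif.
Dlat (chr9:50659781-50660030, minus strand): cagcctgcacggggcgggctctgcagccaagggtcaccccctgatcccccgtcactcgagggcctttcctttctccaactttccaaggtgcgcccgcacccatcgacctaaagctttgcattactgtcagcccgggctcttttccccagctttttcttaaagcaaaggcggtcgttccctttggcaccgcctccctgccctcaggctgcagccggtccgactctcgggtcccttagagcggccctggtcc
Mccc2 (chr13:100015640-100015889, minus strand): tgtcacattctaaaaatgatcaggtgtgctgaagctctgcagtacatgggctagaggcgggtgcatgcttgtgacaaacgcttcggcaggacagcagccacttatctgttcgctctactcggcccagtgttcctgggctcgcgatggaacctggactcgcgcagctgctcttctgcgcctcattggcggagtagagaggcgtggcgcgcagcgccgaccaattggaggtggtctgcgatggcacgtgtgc
Hibadh (chr6:52640301-52640550, minus strand): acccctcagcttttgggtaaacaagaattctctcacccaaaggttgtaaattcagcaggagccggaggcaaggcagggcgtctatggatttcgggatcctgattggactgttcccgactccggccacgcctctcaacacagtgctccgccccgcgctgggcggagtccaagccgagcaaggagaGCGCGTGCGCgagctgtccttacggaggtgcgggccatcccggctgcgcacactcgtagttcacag

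Of the other subunits, *Pdha1* passed in mild hearts and *Dld* in severe hearts. *Pdha1*, the catalytic decarboxylase subunit on which the complex is switched by phosphorylation, lay between 12.91 and 13.39 (median 13.17) in wild type and read 12.73, 12.78 and 12.94 in the mild and 12.92, 13.02 and 13.03 in severe hearts. Of the mild hearts 2 were below all wild type hearts and the third lay inside their range, as did all 3 severe hearts. *Pdha1* fell by 0.35 on the log2 scale (adjusted p = 0.0346, SE 0.09) in mild hearts, and its log2 fold change in severe hearts was -0.18 (adjusted p = 0.405, SE 0.09). The mild minus severe difference of -0.17 (adjusted p = 0.553) did not pass, and against each line's own 3 littermates the changes were -0.26 (adjusted p = 0.261) and -0.27 (adjusted p = 0.213). *Dld* encodes the dihydrolipoamide dehydrogenase that all 3 complexes share. Its signal lay between 7.45 and 7.75 (median 7.69) in wild type and was 7.50, 7.41 and 7.56 in mild and 7.01, 7.16 and 7.14 in severe hearts. Here the severe hearts were below all other arrays, and the mild hearts mostly lay within the wild type range. *Dld* fell by 0.53 on the log2 scale (adjusted p = 5.33e-04, SE 0.08) in severe hearts, against -0.14 (adjusted p = 0.527, SE 0.08) in mild hearts. *Pdhb*, the other decarboxylase subunit, had log2 fold changes of -0.33 (adjusted p = 0.163) and -0.30 (adjusted p = 0.212). *Pdhx*, which anchors the dihydrolipoamide dehydrogenase in the complex, had -0.08 (adjusted p = 0.838) and -0.05 (adjusted p = 0.894). The *Pdhx* signal was dim (wild type mean 6.13, percentile 26.8 of all features), which limits what can be read from it.

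In the TCA cycle, 3 of 14 genes fell in mild hearts (21.4%) and 7 in severe hearts (50%), 2 of them (*Dlst* and *Suclg1*) in both. Of all features, 1.93% were called lower in mild hearts and 1.56% in severe hearts, and of bright features 3.72% and 3.03%. *Cs*, citrate synthase, lay between 12.31 and 12.69 (median 12.50) in wild type, at 12.04, 12.16 and 12.29 in mild hearts and at 12.02, 12.24 and 12.03 in severe hearts. All 6 transgenic hearts were below every wild type heart. *Cs* fell by 0.41 on the log2 scale (adjusted p = 0.0194, SE 0.09) in severe hearts, and in mild hearts a log2 fold change of -0.34 (adjusted p = 0.0546, SE 0.09) missed the threshold.

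Of the isocitrate dehydrogenases of the mitochondrion, *Idh3a* passed in mild hearts and *Idh2* in severe hearts. *Idh3a*, the catalytic subunit of the NAD-dependent enzyme of the cycle, had wild type signal between 11.10 and 11.40 (median 11.26), mild signal of 10.94, 10.81 and 10.91 and severe signal of 10.95, 10.98 and 11.05. Both lines were below the lowest wild type heart, the mild line with each of its hearts lower than each severe heart. *Idh3a* fell by 0.36 on the log2 scale (adjusted p = 0.00515, SE 0.07) in mild hearts, and its log2 fold change in severe hearts was -0.25 (adjusted p = 0.0619, SE 0.07). Against own littermates the severe line passed at -0.33 (adjusted p = 0.0303) and the mild line did not, at -0.29 (adjusted p = 0.0579). The partner subunits *Idh3b* and *Idh3g* had log2 fold changes of -0.04 (adjusted p = 0.933) and -0.05 (adjusted p = 0.853) in mild hearts and of 0.12 (adjusted p = 0.656) and 0.01 (adjusted p = 0.987) in severe hearts. A dimmer *Idh3b* feature (percentile 31.7) had -0.02 (adjusted p = 0.972) in mild and -0.07 (adjusted p = 0.881) in severe hearts. *Idh2*, the NADP-dependent mitochondrial enzyme, lay between 11.99 and 12.33 (median 12.19) in wild type, with 12.01, 12.10 and 12.27 in mild and 11.52, 11.58 and 11.94 in severe hearts. The mild hearts lay inside the wild type range, and the severe hearts below it, the third of them only just. *Idh2* fell by 0.50 on the log2 scale (adjusted p = 0.0039, SE 0.09) in severe hearts, against a log2 fold change of -0.06 (adjusted p = 0.89, SE 0.09) in mild hearts.

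The 2-oxoglutarate dehydrogenase complex is made of *Ogdh*, *Dlst* and the shared *Dld*. *Dlst*, its succinyltransferase core, lay between 11.99 and 12.46 (median 12.12) in wild type and read 11.74, 11.75 and 11.83 in mild hearts and 11.76, 11.85 and 11.88 in severe hearts. No transgenic heart reached the lowest wild type value. *Dlst* fell by 0.39 on the log2 scale (adjusted p = 0.0117, SE 0.08) and by 0.33 on the log2 scale (adjusted p = 0.0363, SE 0.08). The 3 dimmer *Dlst* features did not pass the test, with log2 fold changes of -0.34 (adjusted p = 0.138), -0.07 (adjusted p = 0.911) and -0.06 (adjusted p = 0.857) in mild hearts and of -0.19 (adjusted p = 0.505), -0.41 (adjusted p = 0.105) and 0.17 (adjusted p = 0.409) in severe hearts, so the *Dlst* change rests on 1 of 4 features. *Ogdh*, the decarboxylase, lay between 10.58 and 11.39 (median 10.73) in wild type, with 1 heart far above the other 5, and read 10.59, 10.56 and 10.51 in mild and 10.52, 10.66 and 10.62 in severe hearts. Its log2 fold changes were -0.25 (adjusted p = 0.427, SE 0.12) and -0.21 (adjusted p = 0.526, SE 0.12), and neither passed the test.

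Succinate-CoA ligase pairs a common subunit, *Suclg1*, with either *Suclg2* (GTP-forming) or *Sucla2* (ADP-dependent). *Suclg1* had wild type signal between 12.55 and 12.71 (median 12.67), mild signal of 12.46, 12.36 and 12.39 and severe signal of 12.45, 12.40 and 12.41. The 6 transgenic hearts spanned a narrow range below all wild type hearts. *Suclg1* fell by 0.25 on the log2 scale (adjusted p = 0.0289, SE 0.06) and by 0.24 on the log2 scale (adjusted p = 0.0435, SE 0.06), among the smallest changes that passed. Its call was lost under 11 of 24 alternative settings in mild hearts and under 17 of 24 in severe hearts. *Suclg2* lay between 8.65 and 8.87 (median 8.75) in wild type, at 8.32, 8.53 and 8.55 in mild and at 8.32, 8.59 and 8.38 in severe hearts. These groups did not overlap with wild type either. *Suclg2* fell by 0.33 on the log2 scale (adjusted p = 0.0274, SE 0.08) in severe hearts, and the mild line missed the threshold at -0.29 (adjusted p = 0.0522, SE 0.08). *Sucla2* had log2 fold changes of -0.07 (adjusted p = 0.794) and -0.17 (adjusted p = 0.287).

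At the end of the cycle, fumarate hydratase and the mitochondrial malate dehydrogenase fell in severe hearts. *Fh1* lay between 11.31 and 11.71 (median 11.38) in wild type, at 11.14, 10.98 and 11.29 in mild and at 10.87, 11.03 and 11.08 in severe hearts. All transgenic hearts lay below the wild type range, the mild hearts closer to it. *Fh1* fell by 0.44 on the log2 scale (adjusted p = 0.00971, SE 0.09) in severe hearts, and its change in mild hearts was -0.30 (adjusted p = 0.104, SE 0.09). *Mdh2* lay between 11.97 and 12.37 (median 12.28) in wild type, with 12.25, 12.02 and 12.29 in the mild and 11.72, 11.81 and 11.89 in severe hearts. The mild hearts were within the wild type range and the severe hearts below it. *Mdh2* fell by 0.44 on the log2 scale (adjusted p = 0.00629, SE 0.09) in severe hearts, against -0.06 (adjusted p = 0.879, SE 0.09) in mild hearts. Its cytosolic counterpart *Mdh1*, which with the aspartate aminotransferase *Got2* serves the malate-aspartate shuttle, had log2 fold changes of 0.21 (adjusted p = 0.57) and -0.31 (adjusted p = 0.258), and *Got2* of -0.19 (adjusted p = 0.279) and -0.06 (adjusted p = 0.825).

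In branched-chain catabolism, 3 of 16 genes fell in mild hearts (18.8%) and 7 in severe hearts (43.8%). Of all features, 1.93% and 1.56% were called lower, and of bright features 3.72% and 3.03%. The 3 genes of the mild line (*Dbt*, *Mccc2* and *Hibadh*) were among the 7. *Bcat2*, the mitochondrial aminotransferase of the first step, lay between 7.58 and 7.91 (median 7.78) in wild type, at 7.57, 7.64 and 7.69 in mild and at 7.52, 7.65 and 7.52 in severe hearts. The ranges overlapped, and neither log2 fold change passed, at -0.14 (adjusted p = 0.526, SE 0.08) and -0.20 (adjusted p = 0.201, SE 0.08).

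The branched-chain ketoacid dehydrogenase had its core subunit lower in both lines. *Dbt*, the lipoylated acyltransferase, lay between 7.99 and 8.33 (median 8.06) in wild type and was tightly grouped at 7.66, 7.68 and 7.66 in mild hearts and 7.76, 7.74 and 7.72 in severe hearts. Neither line overlapped with wild type. *Dbt* fell by 0.45 on the log2 scale (adjusted p = 0.00147, SE 0.08), 1.37-fold lower than wild type, in mild hearts and by 0.38 on the log2 scale (adjusted p = 0.00863, SE 0.08), 1.3-fold lower than wild type, in severe hearts. Against each line's own littermates the change was -0.56 (adjusted p = 2.62e-04) in mild hearts and -0.27 (adjusted p = 0.0799) in severe hearts, where the call was lost. *Bckdhb*, one of the decarboxylase subunits, lay between 8.83 and 9.69 (median 9.27) in wild type, at 9.18, 8.82 and 9.01 in mild hearts and at 8.31, 8.72 and 8.55 in severe hearts. The severe hearts were all below wild type, although the wild type hearts themselves split, the severe line's littermates at 9.14, 9.10 and 8.83 and the mild line's at 9.40, 9.69 and 9.53. Against all 6 wild type hearts, *Bckdhb* fell by 0.76 on the log2 scale (adjusted p = 0.00491, SE 0.15) in severe hearts, the largest change among the 35 genes, and that of mild hearts was -0.28 (adjusted p = 0.471, SE 0.15). Against each line's own 3 littermates both changes passed, at -0.54 (adjusted p = 0.0166) in mild hearts and -0.50 (adjusted p = 0.0302) in severe hearts. With the replicate number added as a block, the adjusted p was 0.0476 in mild hearts and 0.0765 in severe hearts. The partner subunit *Bckdha* lay between 10.02 and 10.49 (median 10.39) in wild type, at 10.35, 10.22 and 10.18 in mild and at 9.86, 10.14 and 9.85 in severe hearts. Here 2 severe hearts were below wild type and the third inside its range, and the log2 fold changes were -0.06 (adjusted p = 0.903, SE 0.10) and -0.36 (adjusted p = 0.0706, SE 0.10). Against own littermates they were -0.22 (adjusted p = 0.417) and -0.20 (adjusted p = 0.402). *Bckdk*, the kinase that inactivates the complex, lay between 9.68 and 10.03 (median 9.78) in wild type, at 9.80, 10.08 and 10.11 in mild and at 9.85, 9.80 and 9.78 in severe hearts. It was one of the few genes not on the low side, with 2 mild hearts above all wild type hearts, but neither log2 fold change passed, at 0.19 (adjusted p = 0.34, SE 0.08) and 0.01 (adjusted p = 0.987, SE 0.08).

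On the leucine route, *Mccc2*, a subunit of methylcrotonyl-CoA carboxylase, fell in both lines. It lay between 8.26 and 8.46 (median 8.34) in wild type, at 7.77, 7.72 and 8.03 in mild and at 7.60, 7.86 and 7.95 in severe hearts. The gap to the lowest wild type heart was wide in both lines, which overlapped with each other. *Mccc2* fell by 0.51 on the log2 scale (adjusted p = 0.00121, SE 0.09), 1.42-fold lower than wild type, and by 0.55 on the log2 scale (adjusted p = 7.87e-04, SE 0.09), 1.46-fold lower than wild type. Its partner *Mccc1* had log2 fold changes of -0.09 (adjusted p = 0.767) and -0.17 (adjusted p = 0.421). *Ivd*, isovaleryl-CoA dehydrogenase, lay between 9.55 and 9.87 (median 9.66) in wild type, at 9.25, 9.43 and 9.53 in mild and at 9.30, 9.32 and 9.27 in severe hearts. All transgenic hearts were below wild type. *Ivd* fell by 0.39 on the log2 scale (adjusted p = 0.0079, SE 0.08) in severe hearts and missed the threshold in mild hearts at -0.28 (adjusted p = 0.0629, SE 0.08). *Auh*, the hydratase that follows the carboxylase, had log2 fold changes of 0.05 (adjusted p = 0.872) and 0.05 (adjusted p = 0.831).

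On the valine route, *Hibadh*, 3-hydroxyisobutyrate dehydrogenase, lay between 13.24 and 13.48 (median 13.37) in wild type, at 13.07, 13.09 and 13.14 in mild and at 13.17, 13.09 and 13.02 in severe hearts. The groups did not overlap with wild type. *Hibadh* fell by 0.27 on the log2 scale (adjusted p = 0.0272, SE 0.07) and by 0.28 on the log2 scale (adjusted p = 0.0269, SE 0.07). *Aldh6a1*, the methylmalonate semialdehyde dehydrogenase of the next step, lay between 9.48 and 9.98 (median 9.94) in wild type, at 9.59, 9.66 and 9.75 in mild and at 9.27, 9.17 and 9.37 in severe hearts. The severe hearts were below all others, and the mild hearts lay inside the wild type range. *Aldh6a1* fell by 0.55 on the log2 scale (adjusted p = 0.00433, SE 0.10) in severe hearts, against -0.15 (adjusted p = 0.643, SE 0.10) in mild hearts. The earlier enzymes of the route, *Acad8* and *Hibch*, had log2 fold changes of -0.19 (adjusted p = 0.324) and 0.07 (adjusted p = 0.86) in mild hearts and of -0.07 (adjusted p = 0.795) and 0.07 (adjusted p = 0.827) in severe hearts.

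Of the members on the isoleucine and propionyl-CoA routes, 1 passed, in 1 line. *Pccb*, a subunit of propionyl-CoA carboxylase, lay between 9.34 and 9.67 (median 9.44) in wild type, at 9.32, 9.38 and 9.37 in mild and at 9.21, 9.22 and 9.14 in severe hearts. The severe hearts were just below the wild type range and the mild hearts at its lower edge. *Pccb* fell by 0.28 on the log2 scale (adjusted p = 0.0377, SE 0.07) in severe hearts, against -0.11 (adjusted p = 0.596, SE 0.07) in mild hearts. The severe call was lost under 12 of 24 alternative settings. Its partner *Pcca* had log2 fold changes of -0.18 (adjusted p = 0.32) and -0.24 (adjusted p = 0.111), and the isoleucine enzyme *Acadsb* of 0.08 (adjusted p = 0.809) and -0.24 (adjusted p = 0.176).

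Taking the genes by their place in the 3 related complexes, a reading made after the values were seen, the acyltransferase cores *Dlat*, *Dlst* and *Dbt* all fell in both lines. *Dlst* passed by its brightest feature alone. Against own littermates the calls of *Dlst* in mild hearts and of *Dbt* in severe hearts were lost. The shared *Dld* fell in severe hearts. Of the decarboxylase subunits, *Pdha1* fell in mild hearts and *Bckdhb* in severe hearts (in both against own littermates), while *Pdhb*, *Ogdh* and *Bckdha* did not pass in either. Over the whole list, the genes past the test in both lines were *Dlat*, *Dlst*, *Suclg1*, *Dbt*, *Mccc2* and *Hibadh*. In all, 18 genes passed in at least 1 line and 17 in neither. Neither the overlap nor this count was computed over all features, so both lack a background and are not read as a trait of these genes. Both comparisons used the same wild type hearts, which therefore enter this overlap in both lists.

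The 2 lines were then compared with each other. Of the 35 genes, 2 passed (5.71%, against 1.37% of all features and 2.65% of bright features), and both were higher in the mild than in severe hearts. The mild minus severe difference was 0.39 (adjusted p = 0.0436, SE 0.09) for *Dld* and 0.45 (adjusted p = 0.0489, SE 0.11) for *Idh2*. For *Mdh2* it was 0.38 (adjusted p = 0.0696, SE 0.10), for *Bckdhb* 0.48 (adjusted p = 0.209, SE 0.17) and for *Aldh6a1* 0.40 (adjusted p = 0.127, SE 0.12), none of which passed. Of the genes called in both lines, *Dlat* had a 95% interval of the mild minus severe difference of -0.13 to 0.22, *Mccc2* of -0.17 to 0.25 and *Dbt* of -0.26 to 0.12. When each line was instead set against its own 3 littermates and the 2 changes were subtracted, none of the 35 genes passed (82 of all features did, 0.266%) and 4 had an unadjusted p under 0.05, as did 7.31% of all features. In that test *Dld* had an adjusted p of 0.745 and *Idh2* of 0.648. For *Dbt* the mild change minus the severe change was -0.28 (adjusted p = 0.55), with a 95% interval of -0.51 to -0.05.

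**Figure D3:**
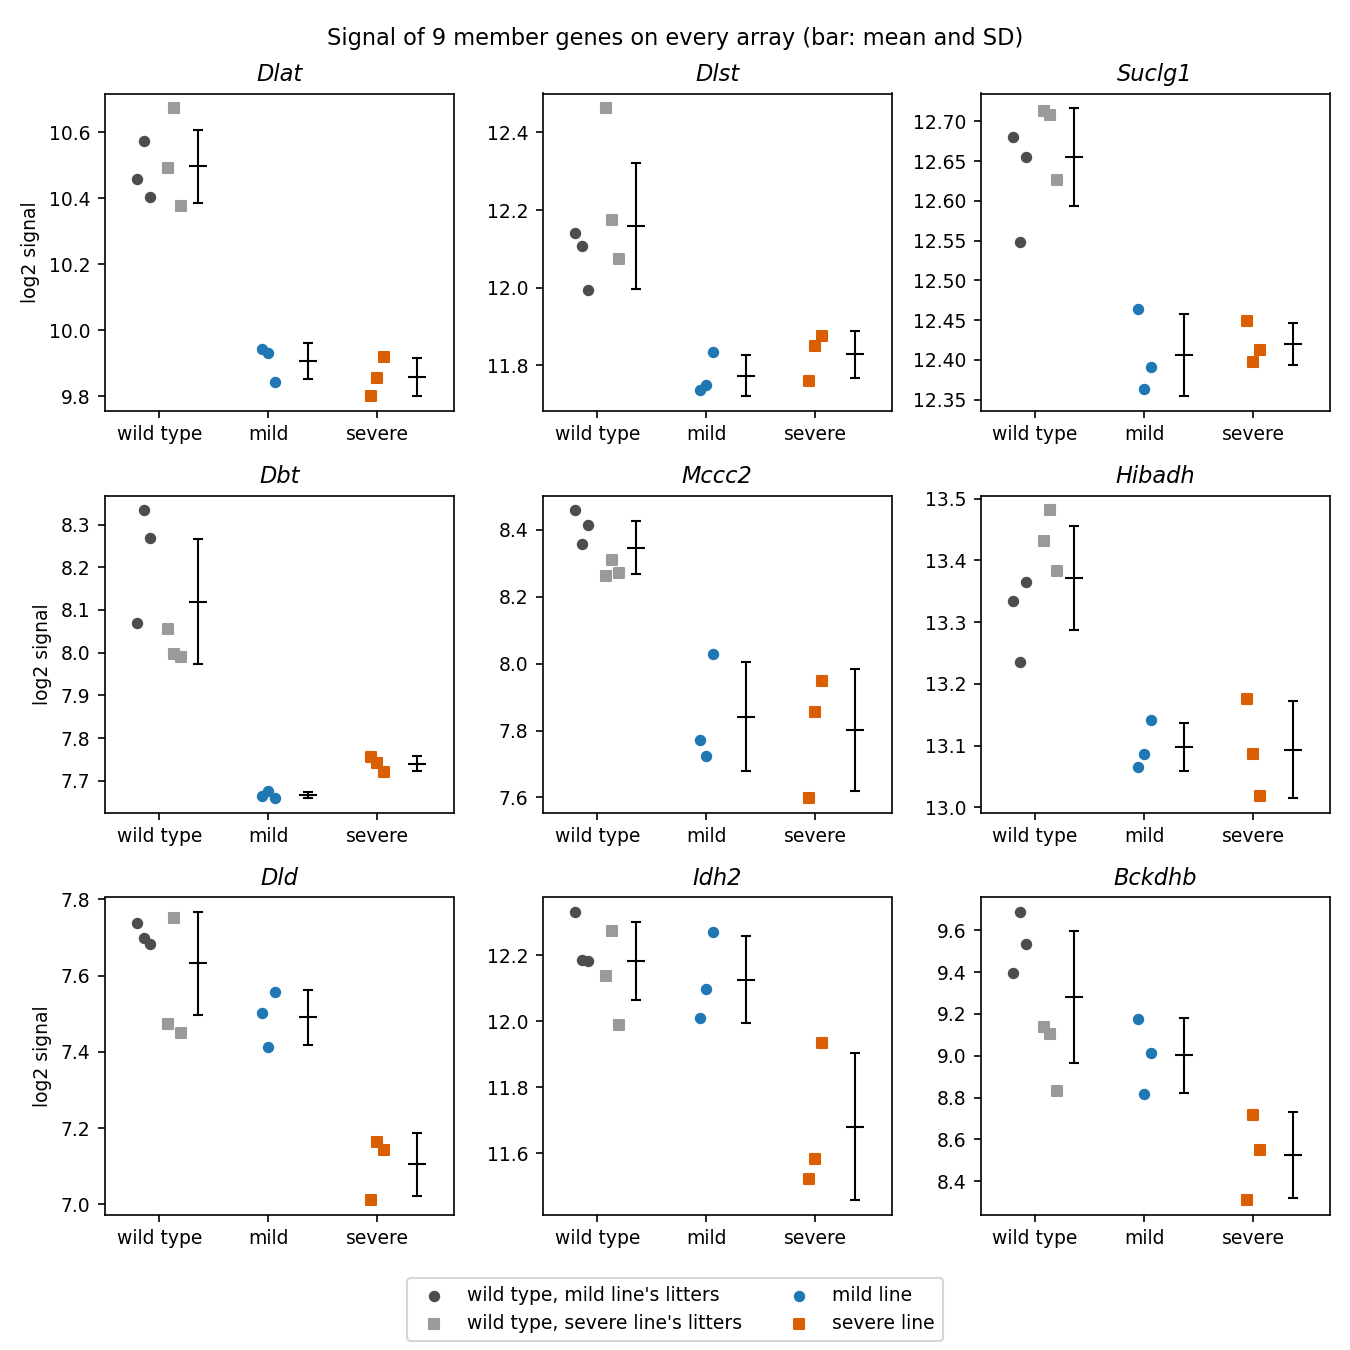
Log2 signal of 9 genes on each array, with wild type littermates of the mild line (dark circles) and the severe line (grey squares), mild hearts (blue circles) and severe hearts (orange squares), and the mean and SD of each group beside its points. Against all 6 wild type hearts, the upper 6 genes passed the test in both lines, and the lower 3 in severe hearts and not in mild hearts, with the mild hearts at or near the wild type range. *Bckdhb* differs against each line's own littermates. There the limma change was -0.54 (adjusted p = 0.0166) in mild and -0.50 (adjusted p = 0.0302) in severe hearts, and all mild hearts lay below their own littermates.

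The wild type littermates of the 2 lines were compared with each other as a background. None of the 35 genes passed (27 of all features did, 0.0875%), and 7 had an unadjusted p under 0.05 (9.96% of all features), all higher in the mild line's littermates. The largest difference was that of *Bckdhb* at 0.52 (adjusted p = 0.108, SE 0.12), followed by *Mdh1* at 0.41 (adjusted p = 0.189, SE 0.11) and *Bckdha* at 0.32 (adjusted p = 0.243, SE 0.10). These differences were in the range of the changes seen in the transgenic lines.

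The calls differ in how far they held when the processing or the controls were changed. Those of *Dlat* and *Mccc2* in both lines, *Dbt* in mild hearts and *Dld* in severe hearts held under all alternatives run. Of the calls against wild type, that of *Suclg1* in severe hearts was lost most often, under 17 of 24 alternatives. *Pccb* in severe hearts was lost under 12, and *Pdha1* and *Suclg1* in mild hearts under 11 each. Against each line's own 3 littermates 4 genes passed in mild hearts (2.34% of all features did). Here *Pdha1*, *Idh3a*, *Dlst*, *Suclg1* and *Hibadh* were lost and *Bckdhb* gained. In the severe line 12 passed (2.32% of all features did), with *Cs*, *Suclg1*, *Suclg2*, *Mdh2* and *Dbt* lost and *Idh3a* gained. *Dlat*, *Mccc2* and *Bckdhb* were then the genes past the test in both lines. Leaving out mild replicate 2 cut the mild line's count from 8 to 3 genes, mild replicate 1 to 4 and the first wild type heart from the severe line's litters to 5, and leaving out severe replicate 1 cut the severe line's count from 16 to 7 and severe replicate 3 to 10. The share of all features called fell in these runs too. In mild hearts it went from 3.55% to 2.02%, 2.42% and 3.25%, in the same order. In severe hearts it went from 3.3% to 1.58% and 2.14%.

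Other genes of these pathways were read from lists of their own. Of 10 measured genes for pyruvate entry and control, 1 passed in each line (10%, against 6.91% and 6.4% of features above the median level), and it was the same gene. *Pdp2*, a phosphatase that switches pyruvate dehydrogenase on, lay between 8.57 and 8.88 (median 8.65) in wild type, at 7.99, 7.74 and 7.77 in mild and at 8.29, 8.06 and 8.00 in severe hearts. The groups were far apart. *Pdp2* fell by 0.86 on the log2 scale (adjusted p = 5.35e-06, SE 0.09), 1.81-fold lower than wild type, in mild hearts and by 0.58 on the log2 scale (adjusted p = 5.55e-04, SE 0.09), 1.49-fold lower than wild type, in severe hearts, more in mild hearts than any of the 35 enzymes. The other catalytic phosphatase of the complex, *Pdp1*, had log2 fold changes of 0.06 (adjusted p = 0.835) and 0.05 (adjusted p = 0.844), and the regulatory subunit *Pdpr* of -0.16 (adjusted p = 0.483) and -0.24 (adjusted p = 0.154). The opposing kinases *Pdk1*, *Pdk2*, *Pdk3* and *Pdk4* did not pass, and *Pdk4*, which varied most between hearts, had log2 fold changes of -0.59 (adjusted p = 0.25) and -0.27 (adjusted p = 0.69). The *Pdk4* littermates of the 2 lines lay apart by 0.75 (adjusted p = 0.184), and against own littermates the change passed in mild hearts at -0.97 (adjusted p = 0.0109) and turned in severe hearts to 0.10 (adjusted p = 0.911).

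Of 21 other measured genes of the TCA cycle and its side entries, 4 fell in mild hearts (19%) and 5 in severe hearts (23.8%), with no rise, against 3.72% and 3.03% of bright features called lower. *Gpt*, the alanine aminotransferase that interconverts alanine and pyruvate, fell by 0.81 (adjusted p = 3.73e-06) and 0.79 (adjusted p = 8.88e-06) on the log2 scale in the mild and severe lines, and the cytosolic isocitrate dehydrogenase *Idh1* by 0.60 (adjusted p = 0.00136) and 0.39 (adjusted p = 0.0399). In the mild line *Glud1*, glutamate dehydrogenase, fell by 0.32 (adjusted p = 0.0478) and *Ogdhl*, a paralog of *Ogdh*, by 0.30 (adjusted p = 0.0338). Each has a dimmer feature that did not pass, at -0.08 (adjusted p = 0.784) for *Glud1* and -0.10 (adjusted p = 0.811) for *Ogdhl*. In the severe line the succinate dehydrogenase subunits *Sdhb* and *Sdhd* fell by 0.48 (adjusted p = 5.02e-04) and 0.69 (adjusted p = 0.00718), and the 2-oxoglutarate carrier *Slc25a11* by 0.36 (adjusted p = 0.0371). The *Sdhb* hearts of the severe line read 11.33, 11.45 and 11.47, below all others, while the mild hearts read 11.98, 11.79 and 11.96, close to the wild type range. The mild minus severe difference of *Sdhb* was 0.50 (adjusted p = 0.00355, SE 0.08), and it was the 1 gene of these 21 that passed between the lines.

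Of 14 other measured genes of branched-chain catabolism, 4 fell and 1 rose in each line (35.7%, against 6.91% and 6.4% of bright features). *Ppm1k*, the phosphatase that activates the branched-chain complex, lay between 8.84 and 9.07 (median 9.03) in wild type, at 8.18, 8.36 and 8.42 in mild and at 8.56, 8.47 and 8.36 in severe hearts. Both lines were below every wild type heart. *Ppm1k* fell by 0.68 on the log2 scale (adjusted p = 1.34e-05, SE 0.08) and by 0.54 on the log2 scale (adjusted p = 2.39e-04, SE 0.08), and its dimmer feature fell by 0.38 (adjusted p = 0.0234) and 0.48 (adjusted p = 0.00534). *Mcee*, the methylmalonyl-CoA epimerase, fell by 0.26 (adjusted p = 0.0484) and 0.36 (adjusted p = 0.00549) and *Echs1*, a short-chain enoyl-CoA hydratase also used in fatty acid oxidation, by 0.41 (adjusted p = 0.0114) and 0.45 (adjusted p = 0.00671). *Acat1*, the mitochondrial acetoacetyl-CoA thiolase, fell by 0.41 (adjusted p = 0.0212) in mild hearts, and *Mlycd*, malonyl-CoA decarboxylase, by 0.63 (adjusted p = 0.00156) in severe hearts. The gene that rose was *Abat*, 4-aminobutyrate aminotransferase, by 0.38 (adjusted p = 0.0083) and 0.47 (adjusted p = 0.00164). Of 12 regulators of mitochondrial genes, none passed in mild hearts (5 had an unadjusted p under 0.05, against 12.3% of all features) and 2 in severe hearts (16.7%, against 6.4% of bright features), where the mitochondrial transcription factor *Tfam* fell by 0.28 (adjusted p = 0.0237) and the mitochondrial deacetylase *Sirt3* by 0.41 (adjusted p = 0.0045). The coactivator *Ppargc1a* and the receptor *Esrra*, which drive genes of oxidative metabolism, had log2 fold changes of -0.44 (adjusted p = 0.294) and -0.21 (adjusted p = 0.189) in mild hearts and of -0.35 (adjusted p = 0.435) and -0.20 (adjusted p = 0.204) in severe hearts. Against own littermates the calls of *Glud1*, *Ogdhl*, *Mcee*, *Acat1*, *Echs1* and *Abat* in mild hearts and of *Sdhd*, *Slc25a11* and *Tfam* in severe hearts were lost. Gained were *Sirt3* in mild hearts, at -0.34 (adjusted p = 0.0371), and *Hadha* of the branched-chain list in severe hearts, at -0.45 (adjusted p = 0.0261). *Sirt3* in severe hearts still passed, at -0.33 (adjusted p = 0.0441).

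**Figure D4:**
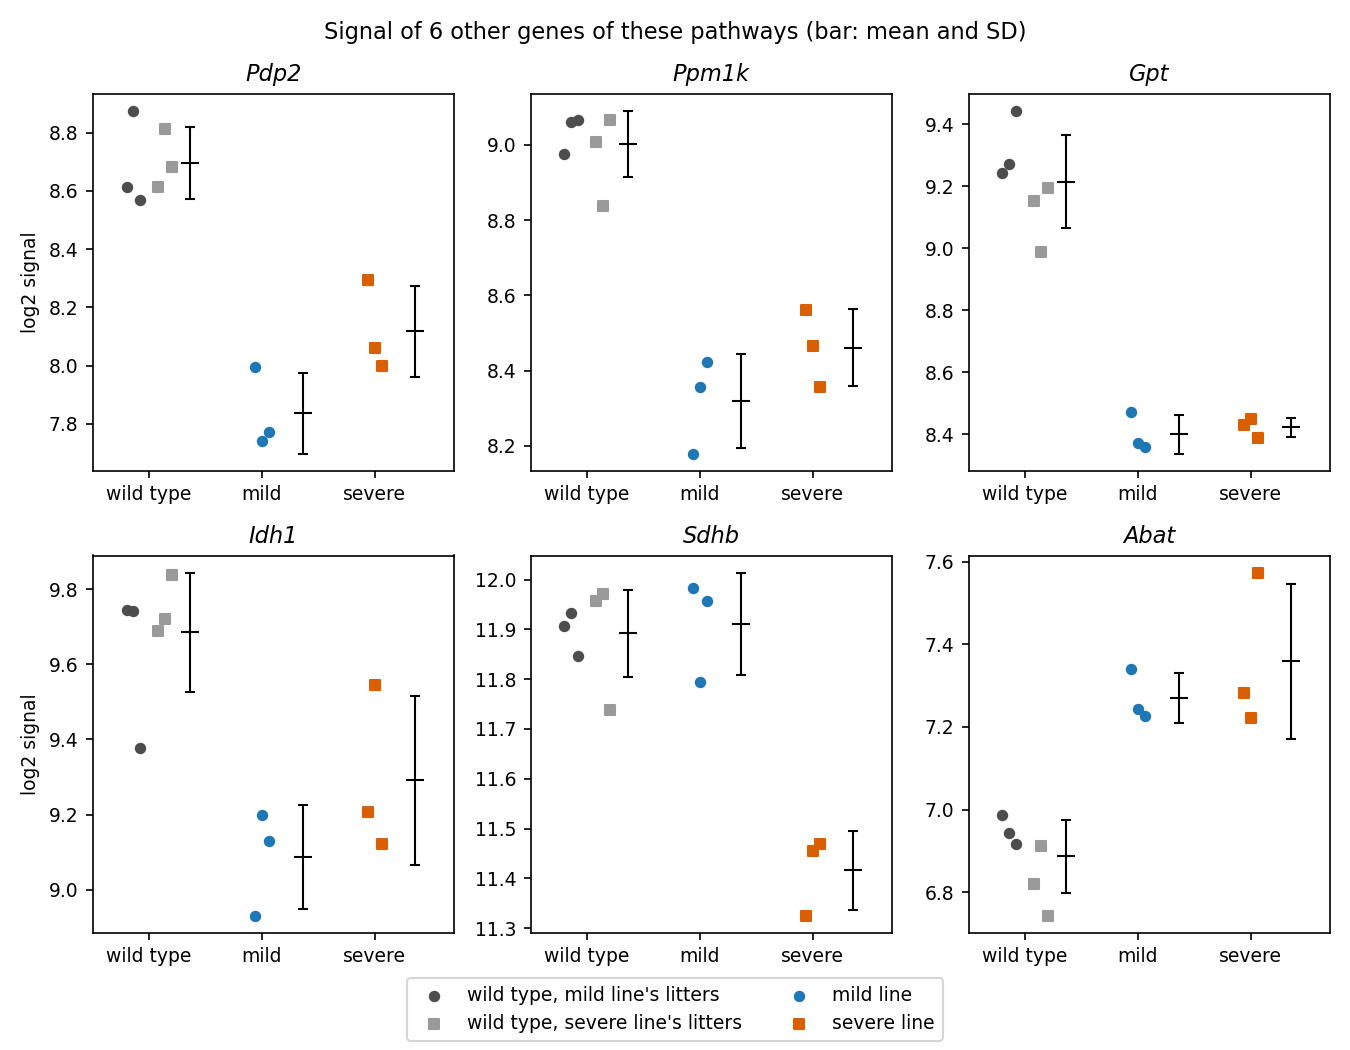
Log2 signal on each array for 6 genes next to these enzymes, drawn with the same symbols, with the mean and SD of each group beside its points. *Pdp2*, *Ppm1k*, *Gpt* and *Idh1* are lower in both lines, *Sdhb* is lower in severe hearts, and *Abat* is higher in both lines.

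The promoters of the members were searched for the letters of 3 motifs of factors that act on mitochondrial genes, on both strands, from 250 bases before to 50 bases after each annotated start site. A window was found for 33 of the 35 genes. The NRF1 motif, searched as GCGC, then any base, then TGCGC, was present for 4 of them (12.1%, against 5.19% of all genes with a window), namely *Dld*, *Hibadh*, *Pccb* and *Sucla2*. The GABP letters CCGGAAG were present for 4 (12.1%, against 9.93%), namely *Auh*, *Dlst*, *Idh3b* and *Idh3g*, and AAGGTCA, bound by the estrogen-related receptors, for 1 (3.03%, against 5.38%), namely *Ogdh*. Of the 5 genes called in both lines that had a window, 1 held the NRF1 motif and 1 the GABP letters. A match describes these letters and not a site in use. The match printed in capitals for *Hibadh* starts at position -66 from the start site, and the stretches printed for *Dlat* and *Mccc2* hold no match.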

How the data were processed

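Total RNA from 12 whole hearts was hybridized to MouseWG-6 v2.0 bead arrays. The authors deposited raw files with 1 bead summary intensity per probe, exported from GenomeStudio per the labels, and a value table of log2 signal after background correction and quantile normalization. No detection p-values were in these files, so the intensities were corrected here by normexp (offset 50), quantile normalized and log2 transformed, and the authors' log2 table served as an alternative. Probe IDs with identical values were merged (45281 IDs, 30854 features, 34885 IDs with 1 symbol, 18 with several and 10378 with none), and 6 lines without an ID in 3 arrays were left out. Linear models with empirical Bayes variances were fitted in limma 3.58.1 (R 4.3.3) over all features, with 3 groups (6 wild type, 3 mild, 3 severe) for the main comparisons and 4 groups for the littermates, and p-values were adjusted by the Benjamini-Hochberg method. The fit was tested on simulated data. A gene is represented by its brightest feature over all arrays, and the number of arrays limits the precision.

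Array values, fold change, SE and adjusted p are given for members past the test and for Pdha1, Cs, Ogdh, Idh3a, Bckdha, Bckdk and Bcat2, and other pathway genes are named where they passed. The members and gene lists were chosen with earlier results of these data known. Promoters are RefSeq windows on GRCm38.p6, which was matched by symbol; the build behind the probes is not given in the sources used here. Alternatives covered background, scaling, filter, variances, array weights, features, controls, the replicate block and leaving out each array.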

Additional observations from a re-analysis of the deposited data

Results flagged for a closer look

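For Ogdh, 1 of the 6 wild type hearts lay far from the other 5: replicate 1 of the severe line's littermates read 11.39, and the others lay between 10.58 and 10.8. For Mdh2, replicate 3 of the same littermates read 11.97, below the others at 12.22 to 12.37. These 2 were found among 22 genes looked at in this way, and chance alone marks about 5% of groups. The wild type mean of Ogdh includes the high heart, and without it the log2 fold change of the mild line was -0.14 and that of the severe line -0.09.

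The signal of the 2 lines differed for Dld, by 0.3857 on the log2 scale (mild minus severe, higher in the mild line), and for Idh2, by 0.4466. Both passed in this direct comparison of the lines. When each line was set against its own littermates and the 2 changes were subtracted, neither difference passed. Against their own littermates the severe hearts passed for Dld (-0.45, adjusted p = 0.00671) and Idh2 (-0.45, adjusted p = 0.0315). The mild hearts passed for neither gene (adjusted p = 0.339 and 0.853).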

How the results depend on the processing

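The results were recomputed under 24 alternatives, 12 of which leave out 1 array. Of 26 gene changes past the test, none changed direction, and 6 passed under every alternative (Dlat and Mccc2 in both lines, Dbt in the mild and Dld in the severe line). The count of 8 genes in the mild line became 3 with a background offset of 16, 4 against the line's own littermates, 4 with the replicate number added as a block, and 3 to 10 when 1 array was left out. The count of 16 in the severe line became 6 with the offset of 16, 5 against its own littermates with the replicate block, and 7 to 16 with 1 array left out. Every member gene called under these settings was lower. The share of all features called fell as well with the offset of 16, from 3.55% to 2.01% in mild hearts and from 3.3% to 1.6% in severe hearts. With the replicate block it was 2.01% and 1.73%, and against own littermates without the block 2.34% in mild hearts. The count of 2 between the lines became 0 with the offset of 16 and with trended, robust variances, 1 with features averaged, 1 with copies counted apart, and 0 to 3 with 1 array left out. The median of the TCA cycle genes in the mild line was -0.15 against own littermates, with or without the replicate block, and -0.24 to -0.17 with 1 array left out. In the severe line, median scaling in place of quantile normalization moved the medians to -0.44 (pyruvate dehydrogenase), -0.43 (TCA cycle) and -0.39 (branched-chain), while the median of features above the median level was -0.06 under it. The pyruvate dehydrogenase median was -0.41 with a filter on signal and -0.38 to -0.16 with 1 array left out. The log2 fold change of Bckdk in the severe line, 0.01, turned to -0.12 under median scaling, -0.017 against own littermates with or without the replicate block, and -0.017 to 0.052 with 1 array left out (-0.0096, -0.014 and -0.017 where it turned). The cause of these moves was not tested. The deviations of same-numbered arrays of a line and its littermates had correlations of -0.24 to 0.06, and those of differently numbered arrays -0.11 to 0.20. With 3 arrays per group these values cannot tell whether same-numbered hearts were matched. The labels give only a replicate number. Signal over background limits the dimmer genes, for which no detection values were used here.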
